A study of Homo sapiens with 6 samples.

Results

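The AlkB family of human dioxygenases was examined in 92.1 cells, an established human ocular melanoma line, with and without knockdown of 1 of its members, ALKBH3. The family was taken as the 9 genes ALKBH1 to ALKBH8 and FTO, chosen by name, and all 9 were among the 11387 genes that the deposited tables cover. They hold 24 of the 28796 transcripts that could be matched to a gene of GENCODE release 29. RNA sequencing compared 3 libraries labelled NC, with the genotype WT, and 3 libraries of a derivative line labelled shALKBH3, with the genotype ALKBH3 knockdown. All 6 were grown in the same serum-containing medium. The labels do not say whether NC cells carry a control hairpin, how many hairpins or clones the knockdown line holds, or whether the 3 libraries of a group are separate cultures. The p-values therefore measure only the spread between these libraries, which may be technical. The hairpin's sequence and its target position were not used here.

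AlkB enzymes use iron, oxygen and 2-oxoglutarate to oxidise a methyl group, which then leaves the base as formaldehyde. ALKBH2 and ALKBH3 repair alkylated DNA in this way, ALKBH2 mainly in double-stranded DNA and ALKBH3 mainly in single-stranded DNA, and ALKBH3 also removes 1-methyladenosine from RNA. ALKBH5 and FTO remove N6-methyladenosine from RNA. ALKBH1 and ALKBH8 act on transfer RNA, ALKBH4 and ALKBH7 are known mainly for roles outside base demethylation, and ALKBH6 is the least characterised.

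Values are FPKM, fragments scaled to transcript length and library size, and a gene's level is the sum over its listed transcripts. Differences are shALKBH3 minus NC on the log2(FPKM + 1) scale, which understates the change of low genes. They were tested with limma over 10475 genes, those averaging 1 FPKM or more, and an adjusted p under 0.05 was taken as passing. Where 3 values are given for a group, they are replicates 1, 2 and 3 in that order. Listed FPKM summed to between 340950 and 361268 in NC and between 326875 and 333987 in shALKBH3, and sequencing depth is unknown. Of 8 melanocyte markers MITF and GPR143 were listed, with sums of 17.7 to 21.2 FPKM in NC and 21.8 to 25.7 FPKM in shALKBH3. MITF was at 7.90, 9.53 and 3.29 FPKM in NC and at 11.1, 14.0 and 10.3 FPKM in shALKBH3 (log2 0.78, limma adjusted p = 0.31). GPR143 differed by -0.03 (adjusted p = 0.91), so the higher sums came from MITF. The defining markers SOX10, TYR, TYRP1, DCT, PMEL and MLANA were not among the listed genes, which gives no level for them. No keratinocyte, endothelial or leukocyte marker was listed (0 of 5 each). Of 6 fibroblast markers COL1A1, COL1A2 and COL3A1 were listed, with sums of 20.8 to 36.7 FPKM in NC and 20.7 to 25.4 FPKM in shALKBH3. COL1A2 and COL3A1 were at 7.23 and 5.46 FPKM in NC replicate 1 and below 1 FPKM in every other library. The part of these markers in the results was not tested.

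ALKBH3 (ENSG00000166199, chromosome 11, plus strand) is the gene the hairpin targets, so its level checks the labels. Of its 12 GENCODE transcripts 4 were listed. ALKBH3-201 is the full-length model, with 10 exons, 1474 nucleotides and a coding sequence of 858 nucleotides before the stop codon. The other 3 are incomplete models. ALKBH3-202 covers 3 exons at the 5′ end, ALKBH3-204 covers 8 exons and stops before the 3′ end, and ALKBH3-208 covers 4 exons and lacks the 5′ end. Much of their sequence is shared with ALKBH3-201, and short stretches across exon junctions separate them. These coding stretches of 30 bases are shown because the values of single ALKBH3 transcripts rest on such differences. They were read from the GENCODE 29 transcript sequences, built on GRCh38, and positions count from 1 at the 5′ end of each transcript. At exon 5 ALKBH3-204 uses an acceptor that lies 3 bases further on, and capitals mark the bases of ALKBH3-201 (positions 615 to 644) that ALKBH3-204 (positions 280 to 309) lacks.
ALKBH3-201: gccacgagtgattgaCAGagagggtgtgta
ALKBH3-204: gccacgagtgattgaagagggtgtgtatga
ALKBH3-208 skips exon 7, which is 89 nucleotides long. Capitals mark the bases after the junction, which are the start of exon 7 in ALKBH3-201 (positions 767 to 796) and the start of the exon after it in ALKBH3-208 (positions 53 to 82).
ALKBH3-201: ctggcatcagagaggATATAACTTATCAGC
ALKBH3-208: ctggcatcagagaggTGGCACCCTGTGCTG
ALKBH3-204 also holds the exon 7 junction of ALKBH3-201, and the other stretches occur in 1 listed ALKBH3 transcript each. Among all 12 GENCODE transcripts of ALKBH3 the stretches occur in 5, 2, 3 and 2, in the order shown.

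ALKBH3 was measured at 10.5, 10.6 and 9.19 FPKM in NC and at 3.29, 3.60 and 4.24 FPKM in shALKBH3. The knockdown libraries held 32.5%, 35.7% and 42.0% of the NC mean, and the groups did not overlap. ALKBH3 fell by 1.24 on the log2 scale (SE 0.118, 95% confidence interval -1.53 to -0.95, limma adjusted p = 0.0079). Its fall ranked 34 by size and its p ranked 47 among the 10475 genes. The ALKBH3 sum includes ALKBH3-202 and ALKBH3-204, with means of 0.596 and 0.853 FPKM in NC and 0.341 and 0.153 FPKM in shALKBH3. Both are in the tables through their NC mean alone, so their part of the fall follows from the listing. ALKBH3 was the 1 member of 9 that passed, beside 0.477% of all genes tested that passed as lower and 1.76% in either direction. The call was narrowly lost without NC replicate 1 (log2 -1.21, adjusted p = 0.051) and where each gene was represented by its leading transcript alone (adjusted p = 0.063). With the replicate number as a block the call was also lost (limma adjusted p = 0.098). Adding a correction for transcript length and GC content to the block gave an adjusted p of 0.145. In bulk RNA, a lower level in every cell and fewer cells with the transcript cannot be told apart.

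**Figure D1:**
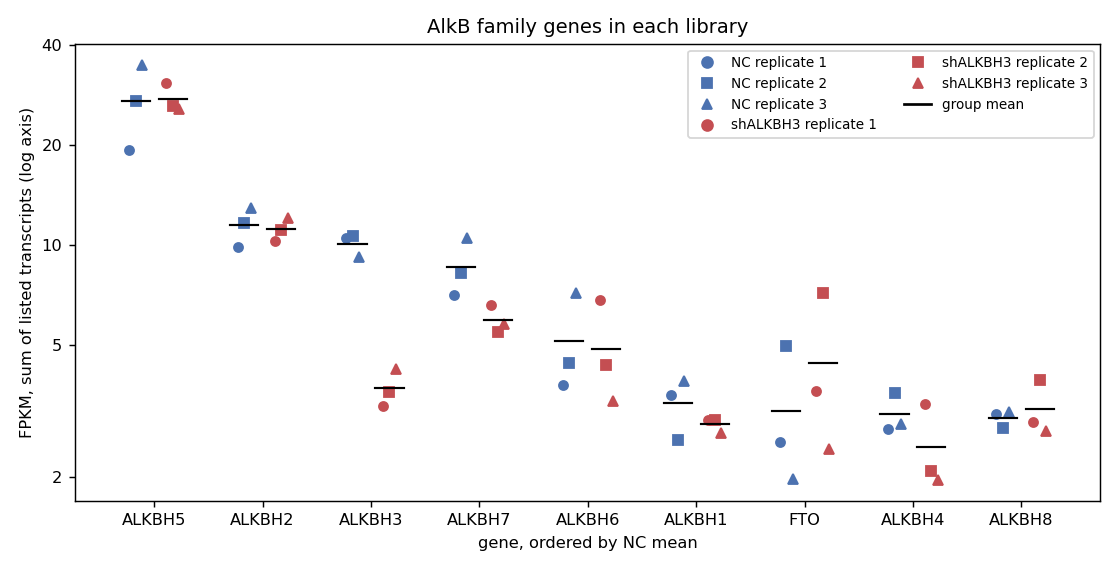
FPKM of each AlkB family gene on a log axis, summed over listed transcripts, in the 3 NC libraries (blue) and the 3 shALKBH3 libraries (red), with symbols for replicate numbers and black bars for group means. ALKBH3 drops from 9.19 or more in NC to 4.24 or less in shALKBH3, ALKBH7 is separated by a small gap, and the other 7 genes overlap.

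The full-length transcript carried most of the ALKBH3 signal. ALKBH3-201 was at 6.61, 8.06 and 6.38 FPKM in NC and at 1.69, 2.97 and 2.60 FPKM in shALKBH3. Every knockdown library was below every control for it, as in 8.9% of the transcripts tested, but as a single transcript it did not pass (log2 -1.24, SE 0.201, limma adjusted p = 0.12 over 19698 transcripts). Of those transcripts 0.122% passed as lower and 0.472% in either direction, and 0 of the 14 tested AlkB transcripts did in limma, with 2 at an unadjusted p under 0.05, beside 9.74% of all transcripts tested. ALKBH3-208, without exon 7, was at 2.58, 1.17 and 1.14 FPKM in NC and at 0.810, 0.406 and 1.17 FPKM in shALKBH3. Its high value was NC replicate 1, the other NC libraries were level with the highest knockdown library, and the difference was -0.53 (adjusted p = 0.63). ALKBH3-204 was at 0.877, 0.746 and 0.936 FPKM in NC and at 0.460 FPKM in shALKBH3 replicate 1, and was listed at 0 in shALKBH3 replicates 2 and 3. ALKBH3-202 was at 0.423, 0.634 and 0.730 FPKM in NC and at 0.328, 0.221 and 0.473 FPKM in shALKBH3. These 2 transcripts had means under 1 FPKM and were not tested. They are in the tables through their NC mean alone, because in every listed transcript the higher group mean is at least 0.5 FPKM, so a lower knockdown mean follows from the listing.

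**Figure D2:**
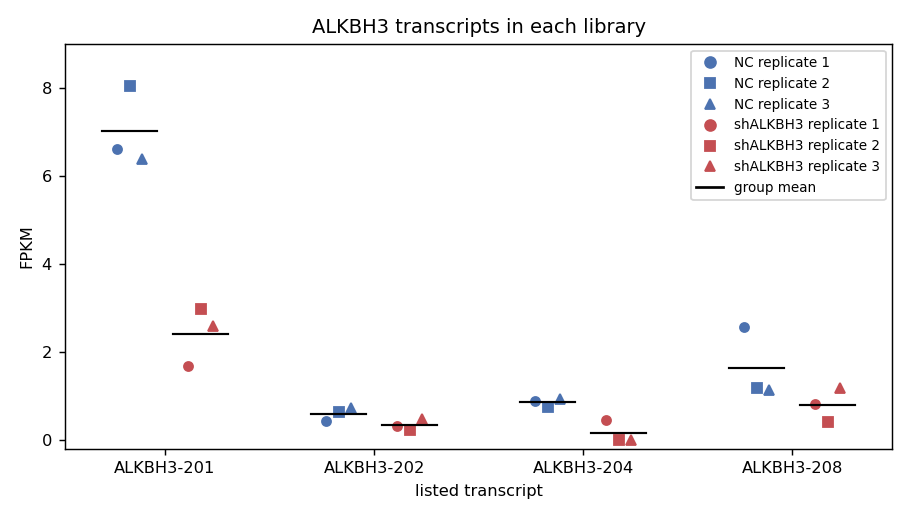
FPKM of the 4 listed ALKBH3 transcripts in each library, NC in blue and shALKBH3 in red, with black bars for group means. ALKBH3-201 lies between 6.38 and 8.06 in NC and between 1.69 and 2.97 in shALKBH3, while ALKBH3-208 and ALKBH3-202 overlap between the groups.

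The share of ALKBH3 FPKM in ALKBH3-201 was 63.0%, 75.9% and 69.4% in NC and 51.4%, 82.6% and 61.2% in shALKBH3. The knockdown values lay on both sides of the controls. The mean share was 69.5% ± 6.45 in NC and 65.1% ± 16.0 in shALKBH3 (mean ± SD of 3). The difference was -4.41 percentage points (exact two-sided permutation p = 0.70). Each share is taken over the ALKBH3 sum, which includes ALKBH3-202 and ALKBH3-204. Both are listed through their NC mean alone, which works toward lower shares of ALKBH3-201 in NC. The test therefore cannot decide whether the share changed. Such shares were compared for 6 members, with an adjusted p of 0.96 for ALKBH3, and 3 against 3 libraries cannot give a p below 0.10.

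The remaining DNA repair member is ALKBH2 (ENSG00000189046, chromosome 12, minus strand). ALKBH2 was at 9.86, 11.7 and 12.9 FPKM in NC and at 10.3, 11.1 and 12.0 FPKM in shALKBH3, so the knockdown range lay inside the control range. Its log2 difference was -0.04 with a 95% confidence interval of -0.33 to 0.26 (limma adjusted p = 0.90), and the sign turned when FPKM were rescaled to equal sums (0.05). The 2 repair genes were at similar levels in NC, where the ratio of ALKBH3 to ALKBH2 was 1.06, 0.908 and 0.710. In shALKBH3 that ratio was 0.320, 0.324 and 0.352, below every control (exact two-sided permutation p = 0.10, the smallest that 3 against 3 can give).

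Single ALKBH2 transcripts were far less even than the gene. ALKBH2-201 and ALKBH2-202 have an identical coding sequence of 783 nucleotides. ALKBH2-202 was at 3.22, 0.189 and 5.17 FPKM in NC and at 3.14, 6.38 and 6.26 FPKM in shALKBH3, and ALKBH2-201 was at 3.37, 6.30 and 2.76 FPKM in NC and at 4.29, 1.26 and 1.57 FPKM in shALKBH3. In NC replicate 2 ALKBH2-201 was far the higher, and in NC replicate 3 and shALKBH3 replicates 2 and 3 ALKBH2-202 was the higher. In replicate 1 of each group both transcripts were closer together. Their sum stayed between 6.49 and 7.93 FPKM, with a coefficient of variation (SD over mean, 6 libraries) of 8.54%, against 58.3% for ALKBH2-202 and 57.3% for ALKBH2-201 alone. The log2 differences of 0.95 for ALKBH2-202 and -0.66 for ALKBH2-201 did not pass (limma adjusted p = 0.67 and 0.66). Without NC replicate 2 they were 0.25 and -0.37, and without other single libraries they reached 1.43 (NC replicate 3) and -1.04 (shALKBH3 replicate 1). How the authors' tool divides fragments between such transcripts is not given in the sources used here, and its part in these values was not tested. ALKBH2-205, an incomplete model, was at 1.55 to 1.86 FPKM in NC and 1.25 to 1.55 FPKM in shALKBH3, and ALKBH2-208 at 1.41 to 3.60 and 1.59 to 2.67 FPKM, with neither passing.

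**Figure D3:**
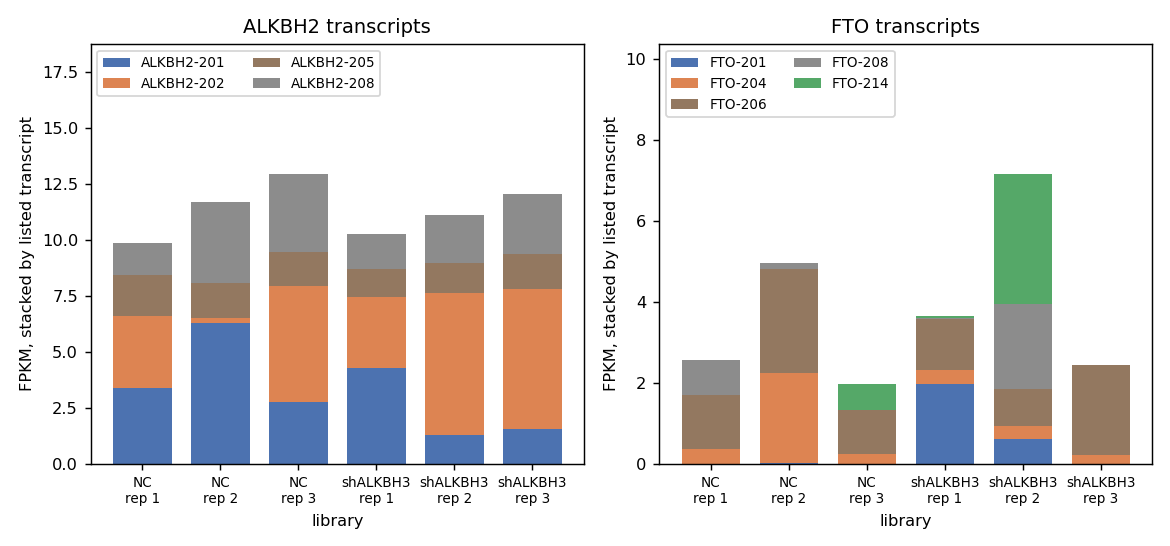
FPKM of the listed transcripts of ALKBH2 (left) and FTO (right), stacked for each of the 6 libraries so that a bar's height is the gene's sum. ALKBH2 bars stay between 9.86 and 12.9 while ALKBH2-201 and ALKBH2-202 trade places within them, and FTO bars run from 1.97 to 7.15 with different transcripts filling them.

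The N6-methyladenosine demethylase gene ALKBH5 (ENSG00000091542, chromosome 17, plus strand) had the highest level of the family in every library. ALKBH5 was at 19.4, 27.2 and 34.9 FPKM in NC and at 30.8, 26.2 and 25.7 FPKM in shALKBH3. NC replicate 1 was the low value and NC replicate 3 the high one, with the knockdown libraries between them. The log2 difference was 0.05 with a 95% confidence interval of -0.46 to 0.57 (limma adjusted p = 0.91), and it was -0.16 without NC replicate 1. ALKBH5-201 made up 92.1% or more of the gene in each library. ALKBH5-203 was at 1.54 FPKM in NC replicate 1 and at 0.0914 FPKM in shALKBH3 replicate 1, and was listed at 0 in the other 4 libraries. It reaches the listing level of 0.5 FPKM through its NC mean alone (0.512 FPKM), so a lower knockdown mean follows from the listing.

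FTO (ENSG00000140718, chromosome 16, plus strand), the other N6-methyladenosine demethylase gene, had the widest confidence interval of the family in the main fit. FTO was at 2.56, 4.95 and 1.97 FPKM in NC and at 3.64, 7.15 and 2.44 FPKM in shALKBH3. Replicate 2 was the high value in both groups, and the groups overlapped. Its log2 difference of 0.35 had a 95% confidence interval of -0.60 to 1.30 (limma adjusted p = 0.67) and was 0.01 without shALKBH3 replicate 2. With the replicate number as a block its SE was 0.13 rather than 0.391 (limma adjusted p = 0.34). Under each replicate number FTO was higher in shALKBH3, but the labels do not say whether the numbers pair the samples. FTO-206, the longest listed model with 11766 nucleotides and 9 exons, was at 1.32, 2.58 and 1.09 FPKM in NC and at 1.26, 0.920 and 2.22 FPKM in shALKBH3 (log2 -0.11, adjusted p = 0.93). The other 4 FTO transcripts summed to 1.23, 2.37 and 0.875 FPKM in NC and to 2.39, 6.23 and 0.222 FPKM in shALKBH3. FTO-214 supplied 3.22 FPKM and FTO-208 2.10 FPKM of the high value in shALKBH3 replicate 2, and both were at or below 0.863 FPKM in every other library. FTO-201 was at 1.97 FPKM in shALKBH3 replicate 1 and at 0.603 FPKM or less elsewhere, and FTO-204 at 2.21 FPKM in NC replicate 2 and at 0.367 FPKM or less elsewhere. Each of those 4 transcripts reaches the listing level of 0.5 FPKM in 1 group only, and none was tested. FTO-201, FTO-208 and FTO-214 reach it through shALKBH3 and FTO-204 through NC, so the direction of each follows from the listing. All 4 are part of the FTO sum.

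ALKBH7 (ENSG00000125652, chromosome 19, plus strand), a mitochondrial family member linked to programmed necrosis, had the largest difference after ALKBH3 without passing. ALKBH7 was at 7.06, 8.24 and 10.5 FPKM in NC and at 6.60, 5.45 and 5.78 FPKM in shALKBH3. The groups did not overlap, and the gap was small, from 6.60 to 7.06 FPKM. ALKBH7 and ALKBH3 were the 2 of 9 members whose libraries were all lower in shALKBH3, a pattern that 12.0% of the genes tested showed, with 24.9% separated in either direction. The shALKBH3 mean of ALKBH7 was 30.9% lower, with a log2 difference of -0.46 (95% confidence interval -0.83 to -0.08, limma adjusted p = 0.23). With a correction for transcript length and GC content the difference was -0.22 (adjusted p = 0.30). ALKBH7-201 had a log2 difference of -0.65 (adjusted p = 0.48). For the shorter ALKBH7-203, NC replicates 1 and 3 are listed at 0 and NC replicate 2 had 0.875 FPKM, and it was at 0.0417, 1.16 and 1.78 FPKM in shALKBH3. ALKBH7-203 reaches the listing level of 0.5 FPKM through its shALKBH3 mean alone (0.994 FPKM, NC 0.292 FPKM) and was not tested. A higher knockdown mean thus follows from the listing, and this transcript is part of the ALKBH7 sum. PSPN overlaps ALKBH7 on the opposite strand, at 0.328 to 0.828 FPKM over the 6 libraries, and whether counting used the strand is not given in the sources used here.

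The transfer RNA members ALKBH1 and ALKBH8 each had 1 listed transcript. ALKBH1 (ENSG00000100601, chromosome 14, minus strand), which acts on mitochondrial and cytosolic transfer RNA, was at 3.53, 2.58 and 3.89 FPKM in NC and at 2.97, 2.97 and 2.72 FPKM in shALKBH3. The knockdown values lay within the control range, and the log2 difference of -0.15 had a 95% confidence interval of -0.50 to 0.21 (limma adjusted p = 0.64). ALKBH8 (ENSG00000137760, chromosome 11, minus strand), which carries a methyltransferase domain beside the dioxygenase and modifies wobble uridines, was at 3.10, 2.81 and 3.15 FPKM in NC and at 2.93, 3.93 and 2.76 FPKM in shALKBH3. The high value was shALKBH3 replicate 2, and the difference was 0.06 (95% confidence interval -0.28 to 0.39, adjusted p = 0.86). Its sign turned with the correction for length and GC content (-0.04).

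ALKBH4 (ENSG00000160993, chromosome 7, minus strand), known for demethylating actin, was at 2.79, 3.59 and 2.89 FPKM in NC and at 3.33, 2.09 and 1.96 FPKM in shALKBH3. The knockdown libraries 2 and 3 lay below the controls and library 1 among them. The log2 difference was -0.26 (95% confidence interval -0.70 to 0.19, limma adjusted p = 0.50). ORAI2 overlaps ALKBH4 on the opposite strand, at 0.795 to 7.10 FPKM over the 6 libraries. ALKBH6 (ENSG00000239382, chromosome 19, minus strand) was at 3.80, 4.42 and 7.18 FPKM in NC and at 6.85, 4.35 and 3.39 FPKM in shALKBH3, so each group spanned nearly the same range. Its difference was -0.07 (95% confidence interval -0.76 to 0.62, adjusted p = 0.91), and it turned to 0.01 when FPKM were rescaled and to 0.21 with the correction for length and GC content. Its most abundant transcript, ALKBH6-201, made up between 19.5% (shALKBH3 replicate 2) and 48.8% (NC replicate 3) of the gene. ALKBH6-202, ALKBH6-212 and ALKBH6-213 had group means between 0.876 and 1.12 FPKM.

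**Figure D4:**
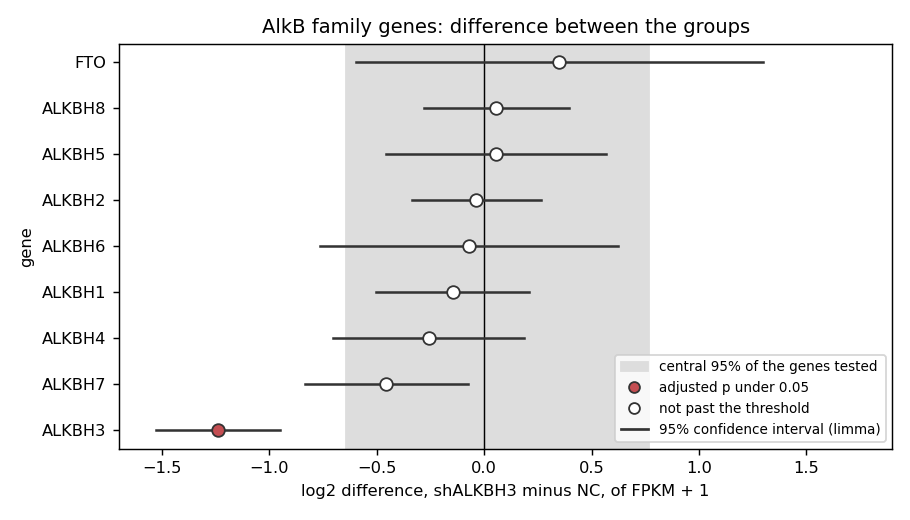
Log2 difference of FPKM + 1, shALKBH3 minus NC, for each AlkB family gene, with bars for limma's 95% confidence intervals and a grey band for the central 95% of the 10475 genes tested. ALKBH3 at -1.24 lies outside the band, which runs from -0.64 to 0.77, and the other 8 lie inside it.

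In NC the order of mean levels was ALKBH5, ALKBH2, ALKBH3, ALKBH7, ALKBH6, ALKBH1, FTO, ALKBH4 and ALKBH8, from 27.2 to 3.02 FPKM. ALKBH5 lay above ALKBH2 in every NC library, and all other neighbours in that order had overlapping ranges. In shALKBH3 the mean of ALKBH3 stood 6th rather than 3rd, below FTO and above ALKBH8, and its range overlapped with both. The whole family summed to 62.6, 76.1 and 86.6 FPKM in NC and to 70.7, 66.8 and 61.1 FPKM in shALKBH3. ALKBH3 supplied 16.8%, 13.9% and 10.6% of that sum in NC and 4.65%, 5.39% and 6.95% in shALKBH3, every knockdown value below every control (exact two-sided permutation p = 0.10). The 8 genes other than ALKBH3 summed to 65.0 ± 12.7 FPKM in NC and to 62.5 ± 5.33 FPKM in shALKBH3 (mean ± SD of 3, exact two-sided permutation p = 0.90).

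The difference of ALKBH3 was set against that of each other member by taking log2 ALKBH3 minus log2 member in each library. This relative level was lower in all 3 knockdown libraries than in all 3 controls for each of the 8 members. The shift ran from -0.78 against ALKBH7 to -1.59 against FTO. Each of the 8 exact two-sided permutation tests gave p = 0.10, the smallest possible, and 0.10 after adjustment over the 8. ALKBH3 supplies a part of every one of these comparisons, so they are not independent.

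Genes that work with or beside the family were followed in 6 lists, whose choice was made with earlier results of these libraries known. Of 17 tested N6-methyladenosine writers and readers 0 passed, with 9 positive and 8 negative differences and a median of 0.10, where the median of all genes tested was -0.01 and 1.28% passed as higher. VIRMA, a scaffold of the methyltransferase complex, was at 9.47, 10.6 and 7.83 FPKM in NC and at 12.1, 12.5 and 12.4 FPKM in shALKBH3 (log2 0.38, limma adjusted p = 0.20). IGF2BP3, an RNA-binding reader, was at 43.3, 45.1 and 26.4 FPKM in NC and at 53.8, 66.9 and 60.9 FPKM in shALKBH3 (log2 0.68, adjusted p = 0.20). These were the 2 members of the list whose libraries did not overlap, both higher in shALKBH3, as 12.9% of the genes tested were. In the most abundant transcript alone the difference was -0.06 for VIRMA and 1.82 for IGF2BP3, which had 0.44 without NC replicate 3.

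Of 4 tested 1-methyladenosine writers, which place the mark that ALKBH3 removes, 0 passed, and 3 had all knockdown libraries below the controls, with a median of -0.27. That pattern was seen in 12.0% of all genes tested. The third of these writers, beside the pair described next, was TRMT10C, and it was named after its values were seen. TRMT10C was at 21.4, 20.3 and 22.4 FPKM in NC and at 17.2, 19.5 and 20.27 FPKM in shALKBH3, so its groups barely separated. Its log2 difference was -0.16 (limma adjusted p = 0.41), and -0.0731 when FPKM were rescaled to equal sums (adjusted p = 0.72). HSD17B10, part of the mitochondrial methyltransferase complex, was at 18.1, 18.5 and 25.5 FPKM in NC and at 13.1, 13.1 and 11.5 FPKM in shALKBH3 (limma adjusted p = 0.11), and it passed where libraries were weighted by their spread (adjusted p = 0.048), a fit that called 320 genes higher and 160 lower. TRMT61B, a mitochondrial methyltransferase, was at 8.77, 7.62 and 7.86 FPKM in NC and at 7.09, 6.64 and 4.44 FPKM in shALKBH3 (log2 -0.38, adjusted p = 0.32), with -0.21 without shALKBH3 replicate 3. Of 11 tested partners in alkylation repair 0 passed, with a median of -0.02. ASCC2, a subunit of the complex that recruits ALKBH3 to damaged sites, was at 9.39, 10.2 and 9.18 FPKM in NC and at 15.8, 13.1 and 13.04 FPKM in shALKBH3 (log2 0.50, adjusted p = 0.093). ASCC2 passed with the correction for length and GC content (0.57, adjusted p = 0.030) and with library weights (0.46, adjusted p = 0.044), and had 1.58 in its most abundant transcript (adjusted p = 0.46). MPG, the glycosylase that removes alkylated purines, was at 44.0, 49.4 and 64.2 FPKM in NC and at 41.6, 32.8 and 32.2 FPKM in shALKBH3 (log2 -0.54, adjusted p = 0.20), with -0.26 after the correction and 0.06 in its most abundant transcript alone. The ASCC2 libraries were all higher and the MPG libraries all lower in shALKBH3. Of the 11 partners 2 were separated in each direction, beside 12.9% of all genes tested as higher and 12.0% as lower. The others were PARP1 as higher and APEX1 as lower, named after their values were seen. MGMT, which reverses another kind of alkylation damage, was not among the listed genes.

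Of 11 tested genes listed for transfer RNA wobble modification, 1 passed as lower and 0 as higher, beside 0.477% and 1.28% of all genes tested. The list was drawn up for the wobble uridine pathway in which ALKBH8 acts. It also holds NSUN3 (log2 -0.13), which acts on a wobble cytidine and is counted in the values given here. The median was -0.13, with 8 negative and 3 positive differences. In 3 genes the knockdown libraries all lay below the controls and in 1 all above them, beside 12.0% and 12.9% of all genes tested. CTU2, a subunit of the enzyme that adds sulfur to wobble uridines, was at 3.10, 3.85 and 2.62 FPKM in NC and at 1.10, 0.824 and 0.737 FPKM in shALKBH3, without overlap (limma adjusted p = 0.030). The call was lost without any 1 library (adjusted p = 0.059 to 0.13) with the correction for length and GC content (adjusted p = 0.074) and in its most abundant transcript (adjusted p = 0.092). TRMT112, the activating partner of the ALKBH8 methyltransferase, and URM1, the sulfur carrier of the wobble uridine pathway, were named after their values were seen. TRMT112 was at 91.2, 85.2 and 99.1 FPKM in NC and at 72.4, 67.2 and 63.3 FPKM in shALKBH3, with a log2 difference of -0.43 that did not pass (adjusted p = 0.088). URM1 differed in the other direction, at 2.54, 2.95 and 3.93 FPKM in NC and at 5.91, 5.30 and 6.52 FPKM in shALKBH3 (log2 0.75, adjusted p = 0.088). With library weights both passed (adjusted p = 0.027 for TRMT112 and 0.024 for URM1). With the correction URM1 passed (0.83, adjusted p = 0.037) and TRMT112 did not (-0.27, adjusted p = 0.082), and URM1 had 0.48 in its most abundant transcript. Of 9 tested genes that supply or consume 2-oxoglutarate 0 passed. IDH3G had -0.28 (adjusted p = 0.24) and IDH1 0.19 (adjusted p = 0.40). IDH3G had -0.0826 with the correction, and IDH1 had 0.66 in its most abundant transcript and 0.0994 without shALKBH3 replicate 2. Of 20 tested dioxygenases of other families that use 2-oxoglutarate 0 passed, 13 had positive differences, and the median was 0.17. KDM2B, a histone demethylase, was at 3.16, 3.52 and 3.04 FPKM in NC and at 4.29, 4.90 and 5.15 FPKM in shALKBH3 (log2 0.44, adjusted p = 0.14), and the oxygen sensor gene EGLN1 had 0.25 (adjusted p = 0.21). KDM2B passed with library weights (adjusted p = 0.046) and had 0.0901 in its most abundant transcript, and EGLN1 had 0.12 with the correction. KDM2B and EGLN1 were separated between the groups, as 7 of the 20 were, beside the 24.9% of all genes. By direction 6 of the 20, KDM2B and EGLN1 among them, were all higher in shALKBH3 and 1 was all lower. The shares over all genes tested were 12.9% and 12.0%.

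**Figure D5:**
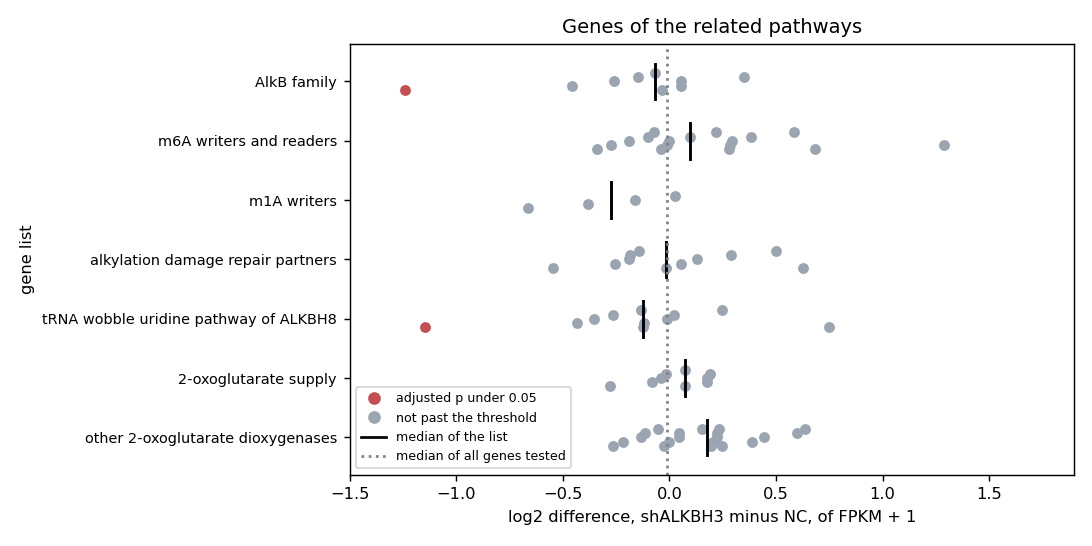
Log2 difference of FPKM + 1, shALKBH3 minus NC, for each tested gene of the AlkB family and of 6 related lists, with red for genes past the threshold, black bars for list medians and a dotted line for the median of all genes tested (-0.01). ALKBH3 and CTU2 are the 2 red points, and list medians run from -0.27 to 0.17.

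The 5 tested genes whose levels followed ALKBH3 most closely over the 6 libraries were TRIM4 (Pearson r = 0.997), TUFT1 (0.996), TGFA (0.989), POLL (0.989) and PSAT1 (0.988), out of 10474 compared on the log2 scale. All 6 points share their groups, so r mostly reflects the step between NC and shALKBH3, and 71 genes had r above 0.95. The size of the step differed: the log2 difference was -0.17 for TRIM4 and TUFT1, -0.46 for TGFA, -0.70 for POLL, a DNA polymerase of repair, and -0.67 for PSAT1. In the most abundant transcript alone the difference was -0.89 for TRIM4 and -0.0136 for TUFT1. When FPKM were rescaled to equal sums it was -0.0849 for TRIM4 and -0.0817 for TUFT1. Deviations from the group means alone gave r of 0.924 for TRIM4 and 0.334 for PSAT1. Both genes were picked by r over the same 6 libraries, so these values are not separate evidence of a link. Of the other family members ALKBH7 had the highest r with ALKBH3 (0.734), with -0.658 once group means were taken out, and FTO the lowest (-0.348).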

How the data were processed

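RNA was measured in 6 libraries, 3 NC and 3 shALKBH3, grouped by their titles. The authors deposited FPKM for each transcript, per the file headers. The build hg19, HTSeq 0.6.0 and DESeq2 are named without a role, per the submitters' processing notes, while the sources used here name no aligner, annotation or tool behind the FPKM. Whole reads could not be recovered, since values reach down to 1e-06 FPKM, so depth is unknown and no counting interval is given.

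Transcript identifiers without version were matched to GENCODE release 29, which gave 28796 of 28900 (99.6%), and FPKM were summed by gene. Genes, or single transcripts, with a mean of at least 1 FPKM were tested as log2(FPKM + 1) with limma 3.58.1 in R 4.3.3, with a variance trend and Benjamini-Hochberg adjustment over all features tested. Shares and ratios were compared with exact two-sided permutation tests (scipy 1.17.1). The limma step was tested on simulated data. The members, the lists and the rule for naming genes were chosen with earlier results of these data known. Named genes are the 9 members and their transcripts, the genes of each list past the threshold or otherwise the 2 with the smallest p, and the 5 genes most like ALKBH3. Others were named after their values were seen. Alternatives covered the pseudocount, filter, scaling, variance model, weights, length and GC content, gene value, replicate number and each library left out.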

Additional observations from a re-analysis of the deposited data

How the results depend on the processing

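ALKBH3 was lower in shALKBH3 under every alternative tried, with log2 differences from -1.42 (pseudocount 0.1) to -1.13 (length and GC correction). It missed the threshold with the replicate number as a block (-1.24, adjusted p = 0.098), with that block and the length and GC correction (-1.13, adjusted p = 0.14), with the top transcript alone instead of the gene sum (-1.24, adjusted p = 0.063) and without NC replicate 1, and in these fits 0 members passed in limma. Without single libraries its log2 difference ran from -1.32 to -1.17, and 0 to 1 members passed. Same-numbered libraries deviated from their group means with correlations of -0.088, 0.075 and -0.012. The labels do not say whether the numbers pair the samples, and correlations from 3 libraries per group cannot settle it. With the block 17 genes were higher and 3 lower, and with the block and the correction 40 and 4, beside 134 and 50. CTU2 also missed the threshold with the block (adjusted p = 0.14) and with the block and the correction (adjusted p = 0.16). Replicate numbers are balanced over the groups, so the block cannot change a difference or its sign, only its SE and p. For that reason the block with the correction gave the values of the correction alone. These were 0.12 for ALKBH2, 0.21 for ALKBH6, -0.0411 for ALKBH8 and -0.0324 for ALKBH8-205. The ALKBH3-201 share difference was likewise bound to stay at -4.41 points.

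Other counts of genes were 320 higher and 160 lower with array weights, 80 and 25 with the top transcript of each gene, 24 lower after rescaling to equal sums (86.3% of calls higher, 72.8% without) and 27 lower without the trend. Without single libraries they ran from 39 to 87 higher and from 9 to 22 lower. No AlkB transcript passed under any alternative run (0 in limma in each).

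Signs turned only for differences that did not pass. ALKBH2 was 0.0505 after rescaling, 0.10 with array weights, 0.12 with the length and GC correction and 0.95 with its top transcript. ALKBH6 was 0.0089 after rescaling and 0.21 with the correction, and ALKBH8 -0.0104 with array weights and -0.0411 with the correction. FTO was -0.11, VIRMA -0.0624 and MPG 0.0643 with the top transcript. Without single libraries ALKBH2 ran from -0.13 to 0.0465, ALKBH5 from -0.16 to 0.25, ALKBH6 from -0.30 to 0.16, ALKBH8 and ALKBH8-205 from -0.0637 to 0.13, ALKBH5-201 from -0.16 to 0.30, ALKBH6-201 from -0.51 to 0.0802, ALKBH6-202 from -0.0987 to 0.20, FTO-206 from -0.32 to 0.12, and the ALKBH3-201 share difference from -13.2 to 2.44 points. Of 42 differences of named genes and transcripts, 35 moved by over 1.5 times or turned in at least 1 alternative, and the 7 that did not were ALKBH3, ALKBH3-201, ALKBH7-201, HSD17B10, POLL, PSAT1 and TGFA. The cause was not tested.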
